A study of Mus musculus with 2 samples.

Results

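The genes described here are the voltage-gated and potassium ion channels of the mouse, taken as every protein-coding gene whose symbol begins with Kcn, with Scn followed by a digit, or with Cacn, and leaving out 1 gene, Kcnq1. This gave 133 of the 21755 protein-coding genes annotated on the 19 autosomes and the X chromosome: 93 potassium channel genes, 14 sodium channel genes and 26 calcium channel genes. A gene was called marked when the 2001 bp around its 5′ end, 1000 bp on each side, overlapped an H3K27me3 peak by at least 1 bp in the list of each of 2 biological replicates. The symbol prefixes take in pore-forming subunits as well as auxiliary ones, and also Kcnrg, a soluble regulator of channel assembly. The symbols alone decide membership, though the set was proposed with earlier results of these data known.

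The peaks come from ChIP-seq of E14TG2a.4 cells, embryonic stem cells of the mouse (strain 129/Ola, labelled male, embryonic and 3.5 day), with an antibody against trimethylated lysine 27 of histone H3 (H3K27me3). There is 1 group, made of biological replicates 1 and 2 from separate biosamples of the line, so nothing in the design sets treated against untreated cells and no control library was analysed here. Replicate 1 has 63651 peaks covering 53.6 Mb and replicate 2 has 98582 peaks covering 58.4 Mb, while read depth is unknown. Neither RNA nor protein was measured, so the identity of the cells could not be checked against marker genes and the lists say nothing of whether a channel gene was transcribed. Where a pair of values is given below, the first is from replicate 1 and the second from replicate 2.

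H3K27me3 is written by Polycomb repressive complex 2 and is associated with silent genes. In embryonic stem cells it is known to lie over CpG-rich promoters of genes that are used later, in differentiated cells. Potassium, sodium and calcium channels carry the currents that set the resting potential and shape action potentials. Most of them act in neurons, muscle, heart, endocrine cells or transporting epithelia. Their pore-forming subunits are accompanied by auxiliary subunits that change gating, assembly or transport to the membrane.

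Of the 133 channel genes, 94 were marked in both replicates (70.7%), against 26.1% of all protein-coding genes (5679 of 21755). The share was 75.3% for potassium channel genes (70 of 93), 69.2% for calcium channel genes (18 of 26) and 42.9% for sodium channel genes (6 of 14). Each of the 3 shares lay above that of all protein-coding genes, and the sodium channel share was the lowest. A single group with a gene set chosen by name allows no test here, so these shares are descriptions of 2 libraries. Counted by chromosomal locus, with members whose starts lie under 200 kb apart joined, 88 of 112 loci held a marked member (78.6%). A joined locus counts here when any of its members is marked. No such share was computed over all protein-coding genes, so the 78.6% cannot be set beside the gene shares above.

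The promoters below show the range of sequence behind these calls, and were picked after their values had been seen. Each runs from 250 bases before the 5′ end to the 50th base from it, on the strand of the gene, in mm10 coordinates, with letters from the RefSeq copy of the same assembly and CpG dinucleotides in capitals. The adjacent sodium channel β-subunit genes Scn2b (chr9:45117532-45117831, plus strand) and Scn4b (chr9:45138145-45138444, plus strand) are the first pair: Scn4b was covered over all 2001 bp in both replicates and Scn2b had no peak.
Scn4b: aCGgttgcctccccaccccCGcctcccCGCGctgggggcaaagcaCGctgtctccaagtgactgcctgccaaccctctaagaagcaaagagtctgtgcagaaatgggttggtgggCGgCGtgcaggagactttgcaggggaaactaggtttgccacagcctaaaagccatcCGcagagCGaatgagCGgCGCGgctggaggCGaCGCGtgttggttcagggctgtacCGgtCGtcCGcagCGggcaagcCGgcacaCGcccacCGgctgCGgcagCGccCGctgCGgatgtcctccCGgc
Scn2b: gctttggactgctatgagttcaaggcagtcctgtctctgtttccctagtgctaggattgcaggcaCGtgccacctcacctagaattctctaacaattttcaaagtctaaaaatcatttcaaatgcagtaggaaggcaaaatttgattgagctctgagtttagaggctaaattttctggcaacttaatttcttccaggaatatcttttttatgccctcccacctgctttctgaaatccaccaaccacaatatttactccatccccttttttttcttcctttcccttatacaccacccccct
The Scn4b promoter holds 27 CpG and the Scn2b promoter 1. Of all protein-coding promoters, 17.7% hold at least 27 and 94.8% at least 1. The second pair comes from Cacna1c, the pore subunit of the cardiac L-type calcium channel. It has no peak at its annotated 5′ end (chr6:119196369-119196668, minus strand), whereas the window of the first marked start of a coding transcript, 87.8 kb downstream (chr6:119108524-119108823, minus strand), was covered over 1517 and 1444 bp.
Cacna1c 5′ end: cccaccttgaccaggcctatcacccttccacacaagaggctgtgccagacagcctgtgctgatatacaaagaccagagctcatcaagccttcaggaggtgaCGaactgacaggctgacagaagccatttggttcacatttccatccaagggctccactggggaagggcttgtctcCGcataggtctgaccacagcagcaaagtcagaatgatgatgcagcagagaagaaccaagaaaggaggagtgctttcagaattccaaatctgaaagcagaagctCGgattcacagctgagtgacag
Cacna1c internal start: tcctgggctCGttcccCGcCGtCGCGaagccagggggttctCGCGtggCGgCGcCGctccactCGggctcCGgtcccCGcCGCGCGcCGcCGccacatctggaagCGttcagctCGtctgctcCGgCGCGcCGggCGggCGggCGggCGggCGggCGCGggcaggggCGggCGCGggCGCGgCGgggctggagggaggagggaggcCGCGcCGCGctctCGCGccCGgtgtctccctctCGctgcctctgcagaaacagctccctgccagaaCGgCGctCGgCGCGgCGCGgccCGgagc
These hold 3 and 53 CpG, and 0.501% of all protein-coding promoters hold as many as the internal one. Kcnj4 (chr15:79505192-79505491, minus strand), an inward rectifier with the highest signal in replicate 1 of all members, is shown with 2 of the promoters that depart from this pattern. Kcne3 (chr7:100176252-100176551, plus strand), an auxiliary subunit, was marked with 2 CpG. Kcnk5 (chr14:20181760-20182059, minus strand), a leak channel of kidney tubules, had no peak with 27.
Kcnj4: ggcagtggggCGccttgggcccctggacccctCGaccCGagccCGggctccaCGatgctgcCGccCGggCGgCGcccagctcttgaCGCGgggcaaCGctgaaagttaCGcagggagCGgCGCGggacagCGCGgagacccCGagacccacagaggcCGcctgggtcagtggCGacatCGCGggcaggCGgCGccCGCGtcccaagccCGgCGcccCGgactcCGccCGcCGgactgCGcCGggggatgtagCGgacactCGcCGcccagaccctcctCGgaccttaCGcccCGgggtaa
Kcne3: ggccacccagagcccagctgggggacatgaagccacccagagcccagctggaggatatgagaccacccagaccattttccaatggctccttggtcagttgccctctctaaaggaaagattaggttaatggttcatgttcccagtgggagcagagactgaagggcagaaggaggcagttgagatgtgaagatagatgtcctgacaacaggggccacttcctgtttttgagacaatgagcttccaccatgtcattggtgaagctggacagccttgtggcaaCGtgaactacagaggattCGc
Kcnk5: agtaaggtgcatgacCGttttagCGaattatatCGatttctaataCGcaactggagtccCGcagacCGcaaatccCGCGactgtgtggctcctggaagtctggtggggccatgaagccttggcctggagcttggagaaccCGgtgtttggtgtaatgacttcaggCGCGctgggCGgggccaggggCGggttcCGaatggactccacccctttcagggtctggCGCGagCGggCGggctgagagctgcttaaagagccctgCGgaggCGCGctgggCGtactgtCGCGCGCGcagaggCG
The Kcnj4 promoter holds 41 CpG, a number that 3.68% of all protein-coding promoters reach. The median number per promoter was 16.5 in marked members and 5 in the other members, against 11 over all protein-coding genes.

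The replicates gave nearly the same set of channel genes. A peak lay at 96 members in replicate 1 and at 104 in replicate 2, and the 94 shared members are 97.9% of the replicate 1 set and 90.4% of the replicate 2 set. Over all protein-coding genes 5679 were shared, of 6057 in replicate 1 and 6574 in replicate 2. Across the 94 marked members the signal of the strongest overlapping peak correlated between the lists with rho = 0.848 (Spearman) and r = 0.839 (Pearson), and covered bases with rho = 0.937 and r = 0.919. Over all marked protein-coding genes rho was 0.872 for signal and 0.913 for covered bases, so agreement at channel genes was near the general level. These are correlations across genes of 2 libraries that share a cell line. Only replicate 2 had a peak at 10 members (7.52%, against 4.11% of all protein-coding genes), which are Cacnb1, Cacng1, Cacng7, Cacng8, Kcna10, Kcne1, Kcne2, Kcne4, Kcnmb1 and Scn1a. Replicate 1 alone had a peak at Kcnip2 and Scn9a (1.50%, against 1.74% of all protein-coding genes). Peaks found in a single list covered 96 to 761 bp of the window, with signals of 2.68 to 4.66, and their own length can run past its edge. No peak in either list lay at the remaining 27 members. Of the 10 genes seen in replicate 2 alone, 8 encode auxiliary subunits, of 36 such members, and 2 encode pore-forming ones, of 86.

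**Figure D1:**
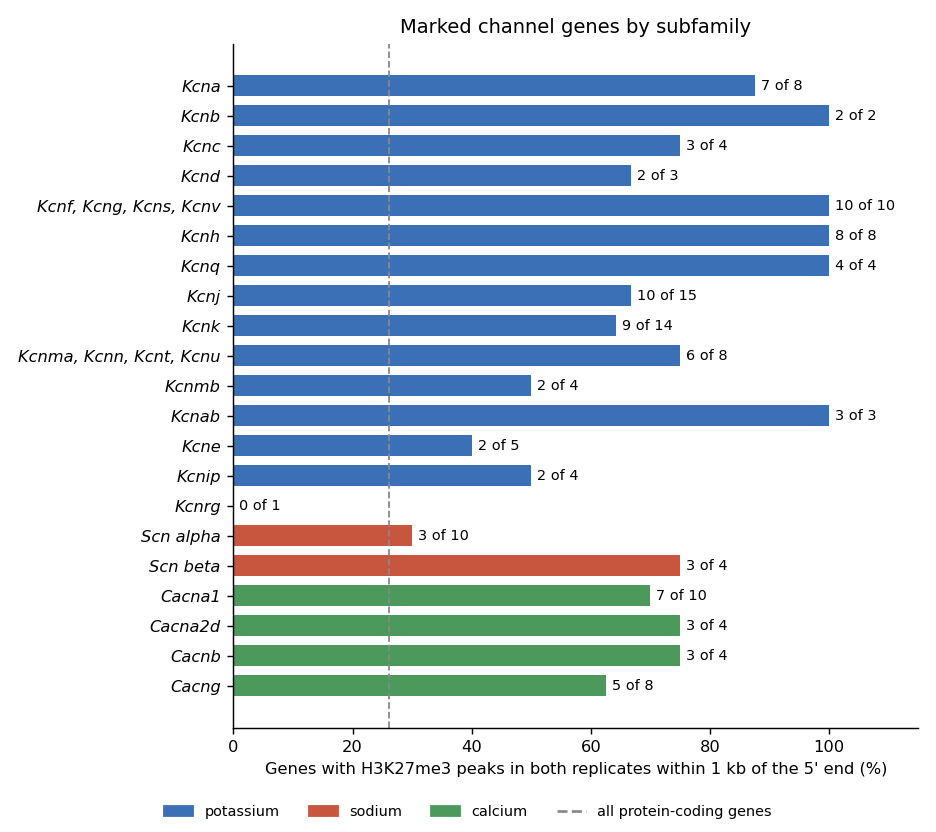
Marked channel genes by subfamily. Bars give the percent of genes with H3K27me3 peaks of both replicates within 1 kb of the 5′ end, labelled with the number marked of the number in the subfamily, and the dashed line is the 26.1% of all protein-coding genes. The bars of 5 subfamilies reach 100%, while the sodium channel α subunits stand at 3 of 10 and Kcnrg at 0 of 1.

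By role, 61 of 86 pore-forming subunit genes were marked (70.9%) and 23 of 36 auxiliary subunit genes (63.9%). Also marked were all 10 genes of the silent Kcnf, Kcng, Kcns and Kcnv families, whose products form no channel alone and modify Kcnb channels. The lower auxiliary share depends on the list. With each replicate by itself, 66.7% and 86.1% of auxiliary genes had a peak, and 72.1% and 73.3% of pore-forming ones. The shares of all protein-coding genes were 27.8% and 30.2%. In 16 of the 21 subfamilies over 50% of the members were marked, and in 5 every member was: Kcnb, the silent group, Kcnh, Kcnq and Kcnab. The subfamilies at or below 50% were Kcnmb, Kcne, Kcnip, the sodium channel α subunits and Kcnrg.

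Marked channel genes also carried more of the mark than marked genes in general. The median window was covered over 1634 and 1543.5 bp (range 447 to 2001 and 277 to 2001 bp), against 1251 and 1200 bp over all marked protein-coding genes. The median signal, which is the authors' value per peak, was 9.80 and 9.99 in marked members (range 3.84 to 18.4 and 4.05 to 18.9), against 7.67 and 7.56. In each list 50% of the marked members therefore ranked above the 94.8th and 96.7th percentile of all its peaks, and the corresponding ranks were 89.0 and 91.7 over all marked genes. Of the 94 marked members, 44 (46.8%) stood above the 95th percentile in both lists, against 24.9% of all marked genes. Whole windows were no more frequent among members. Both replicates covered the whole window at 5 of the 94 marked members and at 303 of all 5679 marked genes, a similar share. The 5 members are Cacna1e, Kcna1, Kcnj6, Kcns1 and Scn4b. Within 5 kb of the start, the bases covered in both replicates had a median of 4517 (range 198 to 8418) in marked members and 2937 in all marked genes.

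**Figure D2:**
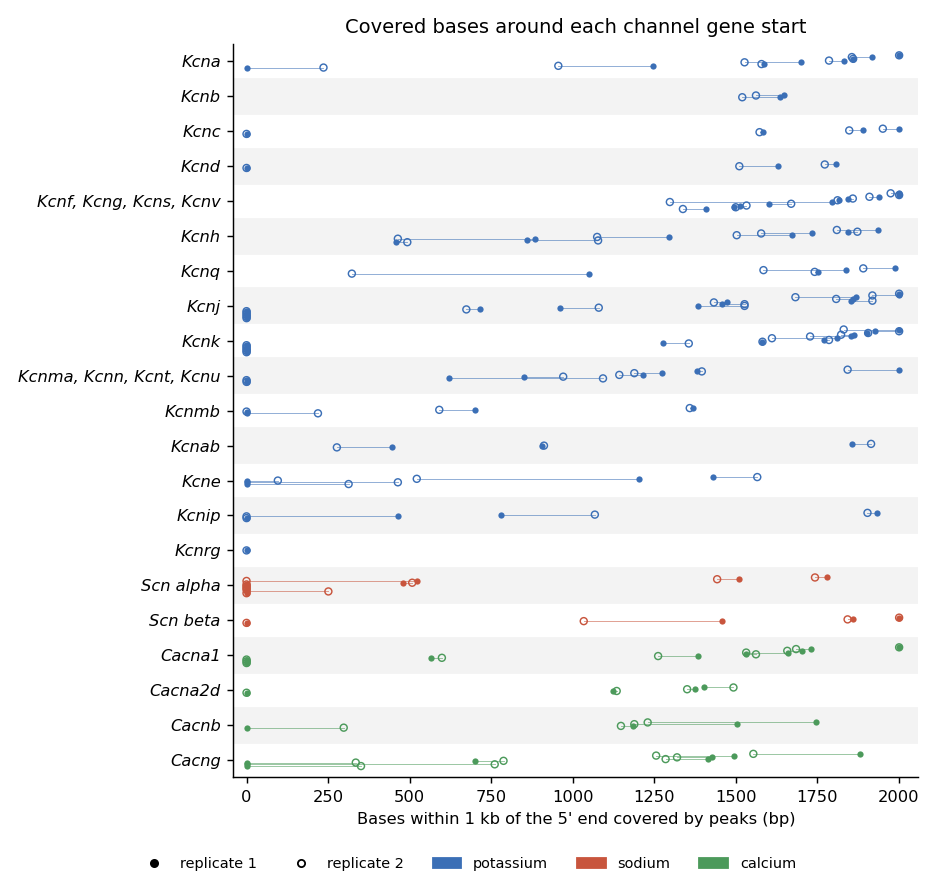
Covered bases at each channel gene. Points give the bases of the 2001 bp window that peaks cover, filled for replicate 1 and open for replicate 2, joined by a line for each gene, with 1 row per subfamily and colours for potassium, sodium and calcium channel genes. Most members lie near 0 or above 1000 bp in both replicates, and the members with a peak in 1 list have a point at 0 and another at 761 bp or less.

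Among the voltage-gated potassium channels related to fly Shaker, the Kcna genes, 7 of 8 were marked. Kcna1, an axonal channel, was covered over all 2001 bp in both replicates, with signals of 12.6 and 14.5. Kcna3, a channel of lymphocytes and neurons, had signals of 12.1 and 13.0 over 1587 and 1579 bp. Kcna6 had 11.8 and 11.3 over 1859 and 1860 bp. The exception was Kcna10, where replicate 2 alone had a peak, covering 236 bp of the window. In the delayed-rectifier Kcnb subfamily both genes were marked, and Kcnb2 was covered over 1647 and 1562 bp. Kcnc channels support fast spiking, and 3 of 4 were marked, with Kcnc1 covered over 1583 and 1573 bp, Kcnc2 over 2001 and 1951 bp and Kcnc4 over 1889 and 1848 bp. Kcnd channels carry the transient A-type current, and 2 of 3 were marked. Kcnd2 was covered over 1806 and 1773 bp and Kcnd3 over 1631 and 1511 bp, but X-linked Kcnd1 had no common base within 180818 bp.

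The silent group was uniform. All 10 genes were covered over at least 1298 bp in each replicate, and the start base itself was covered in both lists in 9 of the 10, against 53.2% of marked members (50 of 94) and 36.7% of all marked genes. Kcng2 and Kcng3 had the highest signals of replicate 1 in the group, 12.6 and 13.2, with 12.4 and 10.5 in replicate 2. Kcns1 was covered over all 2001 bp in both replicates. Their median CpG ratio was 0.459, beside 0.462 over all 133 members, where the CpG ratio is the observed over the expected number of CpG within 500 bp on each side of the start.

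All 8 Kcnh genes, the ether-à-go-go family, were marked, although coverage varied more than in the silent group. Kcnh1, a neuronal channel, had signals of 11.2 and 12.1 over 1295 and 1075 bp. Kcnh3 had 8.89 and 10.4 over 1844 and 1873 bp. Kcnh2, which carries the rapid delayed rectifier current of the heart, was covered over only 457 and 493 bp, and the nearest commonly covered base lay 544 bp from its start, yet 3881 bp within 5 kb were covered in both lists. The mark there lay mostly beyond the window. All 4 Kcnq genes counted were marked. Kcnq5, a subunit of neuronal M-type channels, was covered over 1838 and 1585 bp with signals of 9.86 and 9.83.

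Among inward rectifiers, 10 of 15 Kcnj genes were marked. Kcnj4 had signals of 18.4 and 16.2 and 8418 bp covered in both replicates within 5 kb, the most of any member. Kcnj12, another strong rectifier of muscle and neurons, had 13.97 and 11.0. Kcnj11, the pore of the ATP-sensitive channel of pancreatic β cells, had signals of 13.7 and 12.4 but only 717 and 674 bp of its window covered. Strength of the peak and breadth within the window thus differed at that gene. Kcnj9, which forms G protein-gated channels, and Kcnj10, the main inward rectifier of glia, were covered over 1854 and 1919 bp and over 1868 and 1683 bp. The 5 unmarked Kcnj genes had no peak in either list. They include Kcnj1, a channel of the kidney tubule whose nearest common base lay 2606 bp away, and Kcnj13, a channel of the retinal pigment epithelium with 75901 bp to the nearest common base.

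Of the tandem-pore leak channels, 9 of 14 Kcnk genes were marked, and 7 of these had the start base covered in both lists. Kcnk9, an acid-sensitive leak channel of neurons, was covered over 2001 and 1831 bp with signals of 14.2 and 13.3. Kcnk13 was covered over 1928 and 2001 bp and Kcnk10 over 1853 and 1728 bp. Kcnk15 had 8377 bp covered in both replicates within 5 kb. Kcnk2, Kcnk5, Kcnk16, Kcnk18 and Kcnk7 had no peak in either list. Kcnk16, a channel of pancreatic islets, and Kcnk18, a channel of sensory neurons, lay 5485 and 7294 bp from the nearest common base, and Kcnk5 lay 57538 bp from it. Among channels gated by calcium or sodium ions and their relatives, 6 of 8 were marked. Kcnn1, a small-conductance calcium-activated channel, was covered over 2001 and 1843 bp, while Kcnma1, the large-conductance one, was covered over 622 and 1093 bp with signals of 5.75 and 4.05. Kcnt2, a sodium-activated channel, and Kcnu1, a sperm channel, had no peak, and the distance from Kcnt2 to the nearest common base, 1394251 bp, was the longest among all members.

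The auxiliary potassium channel subunits were less evenly marked. All 3 Kcnab genes, cytoplasmic β subunits of Kcna channels, were marked, with Kcnab1 covered over 1858 and 1915 bp and Kcnab2 over 447 and 277 bp, the fewest bases of any marked member. Of the Kcnmb genes, β subunits of the large-conductance calcium-activated channel, 2 of 4 were marked, and Kcnmb4, the neuronal one, was covered over 1369 and 1359 bp. The Kcne genes encode single-span subunits. Only Kcne3 and Kcne1l were marked of the 5, and at Kcne1, Kcne2 and Kcne4 replicate 2 alone had a peak, covering 313, 464 and 96 bp of the window. The Kcnip genes encode calcium-binding partners of Kcnd channels, and 2 of 4 were marked: Kcnip4 over 1932 and 1904 bp, and Kcnip1 over 781 and 1068 bp.

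The sodium channels split by subunit type. Of the 10 α-subunit genes, which form the pore, 3 were marked, among them Scn8a and Scn10a. Scn8a, the sodium channel of mature nodes of Ranvier, was covered over 1510 and 1443 bp with signals of 8.22 and 8.10. Scn10a, a channel of nociceptive neurons, was covered over 480 and 508 bp, and was the 1 marked member with no base of its window covered in both lists, the nearest being 1099 bp from the start. The brain channels Scn1a, Scn2a and Scn3a had no call in both replicates. Scn1a had 251 bp of its window covered in replicate 2 alone, and the 2 others had none in either list. Of all 21755 protein-coding genes, 14803 had no peak in either list. The nearest base covered in both replicates lay 32611 bp from Scn1a, 378569 bp from Scn2a and 325425 bp from Scn3a. Scn7a and Scn9a, in the same region of chromosome 2, lay 376685 and 226733 bp away, and Scn11a lay 107233 bp away. The stretch around these brain channel genes was thus almost empty of common peaks. Of the 4 β-subunit genes, 3 were marked. Scn4b had signals of 12.3 and 15.6, and Scn3b was covered over 1860 and 1843 bp.

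For calcium channels, 7 of 10 pore-forming Cacna1 genes were marked at the 5′ end. All 3 T-type genes, for channels that open at low voltage, were among them and were strong. Cacna1g had signals of 15.6 and 13.3 over 1533 and 1562 bp. Cacna1i had 14.2 and 14.7 over 1732 and 1685 bp, and Cacna1h had 11.5 and 11.6 over 1385 and 1262 bp. The L-type genes include those for the channels of muscle contraction, and 2 of 4 were marked. Cacna1s, of skeletal muscle, was covered over 1704 and 1658 bp with signals of 6.58 and 7.23, and Cacna1f, of the retina, over 565 and 599 bp with signals of 3.84 and 5.21. The start of Ascl5, another protein-coding gene, lies 1946 bp from that of Cacna1s. Of the P/Q-, N- and R-type genes, which serve transmitter release and dendritic entry of calcium, 2 of 3 were marked. Cacna1b was covered over 1660 and 1532 bp and Cacna1e over all 2001 bp in both replicates. Cacna1a, Cacna1c and Cacna1d had no peak at the 5′ end.

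Among auxiliary calcium channel subunits, 3 of 4 Cacna2d, 3 of 4 Cacnb and 5 of 8 Cacng genes were marked. Cacna2d2 and Cacna2d3, extracellular α2δ subunits, had signals of 12.9 and 11.9 and of 12.3 and 14.04. Cacnb4, a cytoplasmic β subunit, had 11.8 and 13.3, and Cacnb3 had 12.4 and 4.92, the lists differing widely there. Cacng2 and Cacng4 encode transmembrane proteins that also escort AMPA-type glutamate receptors. Cacng4 had signals of 13.2 and 13.0 over 1415 and 1285 bp, and Cacng2 had 11.5 and 9.83 over 1494 and 1256 bp. Cacng1, a subunit of the skeletal muscle channel, had 351 bp of its window covered in replicate 2 alone. Cacng7 had 761 bp covered in replicate 2 and its nearest common base at 1051 bp, just outside the window.

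Of the 3 X-linked members, Cacna1f and Kcne1l were marked and Kcnd1 was not. The median signal of the 2 marked ones was 4.52 and 5.06, below the 9.80 and 9.99 of all marked members but within their range. The line is labelled male, so the X chromosome and the autosomes differ in copy number, and the part of copy number in these signals was not tested.

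**Figure D3:**
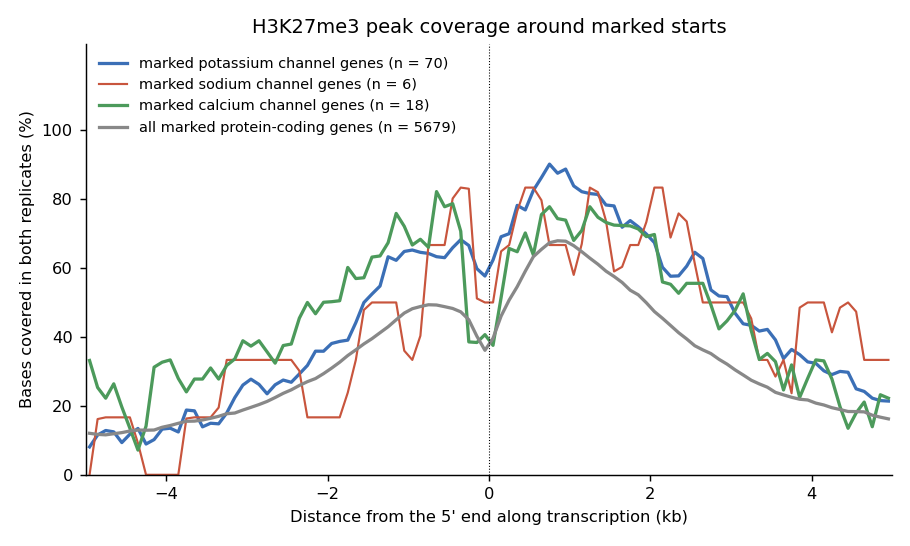
Peak coverage around marked starts. The vertical axis is the percent of bases covered by peaks of both replicates in bins of 100 bp, and the horizontal axis is the distance from the 5′ end along the direction of transcription, in kb, for marked potassium (n = 70), sodium (n = 6) and calcium (n = 18) channel genes and all 5679 marked protein-coding genes. All 4 lines dip at the start, and the potassium channel line reaches 90.1% at 700 to 800 bp downstream.

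The mark lay more downstream than upstream of the start. Over the 5 kb on each side, 55.1% of downstream bases and 36.0% of upstream bases were covered in both replicates at marked members, against 39.9% and 27.6% at all marked genes. Coverage of marked members was highest at 700 to 800 bp downstream, where 86.3% of bases were covered, and that of all marked genes at 800 to 900 bp with 67.9%. At the start itself both sets dipped. In the last 100 bp before the start 53.9% of bases were covered in marked members and 36.1% in all marked genes, and in the first 100 bp after it 56.8% and 39.6%. The calcium channel genes were the most even, with 49.8% downstream and 43.7% upstream, and had their highest bin, 82.2%, at 600 to 700 bp upstream. The potassium channel genes had 56.2% downstream and 34.4% upstream. With 6 marked sodium channel genes, each gene weighs heavily in that line, and its 57.1% downstream and 31.1% upstream describe those genes alone.

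Bases covered in both replicates and lying within 3 kb of each other were joined into domains. Of 16987 domains, 83 held the start of a channel gene, with 84 member starts in all, and 77 of these held no other protein-coding start. Their median length was 7.11 kb, against 5.81 kb for the 3601 domains holding any protein-coding start. The longest, 42.7 kb on chromosome 1 (chr1:172312819-172355538), ranked 51 among all domains. It was the only domain with more than 1 member, the divergent pair Kcnj9 and Kcnj10, whose starts lie 11.9 kb apart. Cacna1g lay in a domain of 39.4 kb together with Spata20 and Epn3. The domain of Kcnj4 measured 26.1 kb, with Kdelr3, and that of Scn4b 17.1 kb. Cacna1s and Ascl5 shared a domain of 5.17 kb. In all, 29 of the 1367 domains of 10 kb or longer held a member start, and 6 of these domains measured 20 kb or longer. Of the marked members, 30 (31.9%) started in a domain of 10 kb or longer, against 19.9% of all marked protein-coding genes. The number of long domains depends on the joining distance: 13 reached 10 kb when bases within 1 kb were joined.

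**Figure D4:**
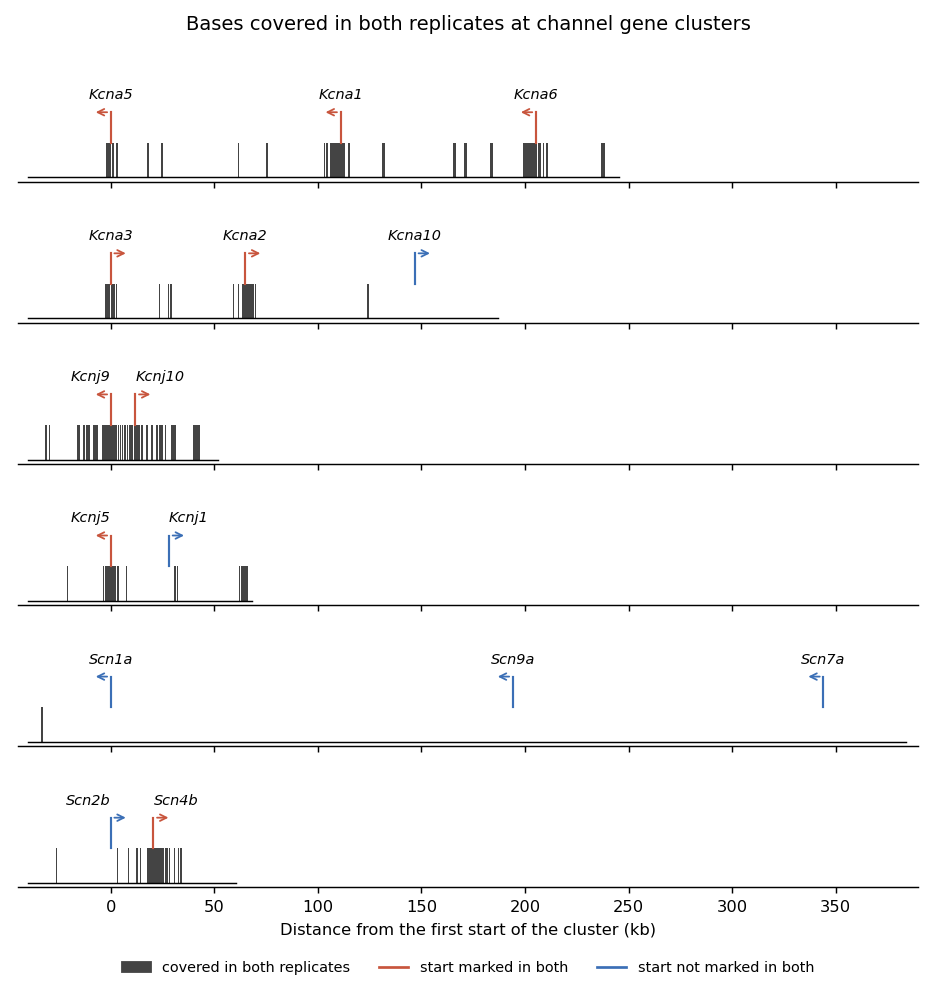
Channel gene clusters. Each row shows 1 cluster along the chromosome, in kb from its first start, with dark blocks for bases covered in both replicates (blocks are drawn at least 0.6 kb wide so that short ones can be seen), red stems for starts marked in both replicates, blue stems for the others, and arrows for the direction of transcription. Most blocks gather at marked starts, and the row of Scn1a, Scn9a and Scn7a has covered bases at 1 place only, from 32611 bp off the Scn1a start, where 2 intervals are drawn as 1 block.

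Neighbouring channel genes often differed in their call. Of the 133 members, 36 lie in 15 clusters of starts under 200 kb apart, and 16 of these 36 were marked, against 78 of the 97 members outside clusters. In 2 clusters every member was marked, in 8 some were and in 5 none. The wholly marked clusters were Kcnj9 with Kcnj10, and Kcna5, Kcna1 and Kcna6 on chromosome 6, where each of the 3 Kcna genes had a separate domain. In the cluster of Kcna3, Kcna2 and Kcna10 the first 2 were marked in separate domains. Scn4b, covered over all 2001 bp, starts 20.6 kb from Scn2b, which had no peak. At Kcnj5 and Kcnj1, 28.1 kb apart, only Kcnj5 was marked, over 1859 and 1808 bp, and at Kcnj2 and Kcnj16 only Kcnj2 was, over 960 and 1080 bp. The clusters with no marked 5′ end were Scn3a with Scn2a, Scn1a with Scn9a and Scn7a, Kcne2 with Kcne1, Kcnk5 with Kcnk16, and Cacna1c with Cacna2d4.

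Several channel genes without a mark at the annotated 5′ end carried it at another transcript start. This held for 10 of the 39 members not marked at the 5′ end (25.6%), against 4.52% of all protein-coding genes not marked there. All 133 members and protein-coding genes as a whole both had a median of 3 annotated starts. The 10 genes had from 2 starts, at Kcne1 and Scn4a, to 14, at Cacna1c. Genes with more starts have more windows that can overlap a peak, and the part of start number in these shares was not tested. Counting a gene at any of its starts, 104 of 133 members were marked (78.2%), against 29.4% of all protein-coding genes. By class these were 74 of 93 potassium, 7 of 14 sodium and 23 of 26 calcium channel genes, and they included all 10 Cacna1 genes and all 4 Cacna2d genes. Starts of other genes near these other starts were not looked for. A call there therefore does not tell whose promoter carries the mark.

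With any start counted, 67 of 86 pore subunit genes were marked, and calcium channel genes were 3 of the 6 gained. Cacna1a, the P/Q-type channel of nerve terminals, had a 5′ end that belongs to a noncoding transcript, and its first coding start, 26.9 kb downstream, was covered over 593 and 550 bp. Cacna1c was covered over 1517 and 1444 bp at the coding starts from 87.8 kb downstream, as in the sequences above. Cacna1d, an L-type channel of neurons, endocrine cells and the sinoatrial node, was covered over 1448 and 1385 bp at a coding start 138.4 kb downstream. At these coding starts the CpG ratio was higher than at the 5′ end: it was 0.968 at that start of Cacna1a against 0.152 at its 5′ end, 1.05 against 0.292 for Cacna1c, and 0.786 against 0.406 for Cacna1d. Starts of noncoding transcripts with lower ratios were marked as well. In Cacna1a one 213 kb downstream, with a ratio of 0.448, was covered over 1299 and 1300 bp, and in Cacna1c one 601 kb downstream, with a ratio of 0.181, over 1743 and 1454 bp. Cacna2d4 was covered over all 2001 bp in both replicates 94.2 kb downstream, where the annotation has noncoding transcripts of the gene only. Whether another gene starts there was not checked. Kcnk2, a mechanosensitive leak channel, was covered over 1888 and 1827 bp at a coding start 58.1 kb downstream, and Kcnip3 over 1386 and 1426 bp at one 39.6 kb downstream. At Kcne1 the other start lay only 594 bp downstream, at Cacng8 3.43 kb and at Scn4a, the skeletal muscle sodium channel, 3.90 kb. Scn1a, Scn2a, Scn3a, Scn7a, Scn9a and Scn11a were marked at none of their starts.

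**Figure D5:**
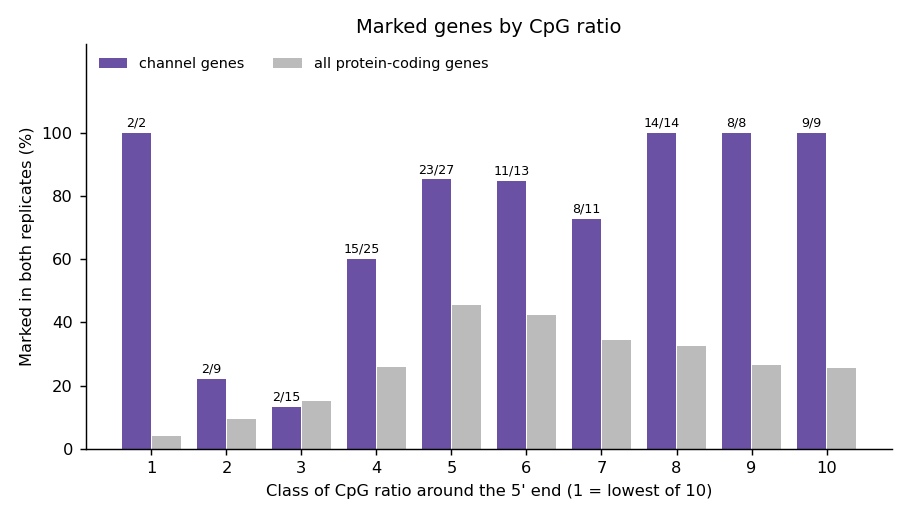
Marked genes by CpG ratio. All 21755 protein-coding genes were ranked by CpG ratio and cut into 10 classes of equal size, the lowest ratio first, and bars give the percent marked in both replicates for channel genes, with marked and total numbers above, and for all protein-coding genes. The channel genes are all marked in classes 8 to 10, where 28.1% of all genes are.

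Channel genes had a median CpG ratio of 0.462, against 0.558 over all protein-coding genes. Marked members had a median CpG ratio of 0.589 (range 0.0683 to 1.04) and the other members 0.267 (range 0.119 to 0.675), against 0.634 in all marked and 0.474 in all unmarked protein-coding genes. When all genes were ranked by CpG ratio and cut into 10 classes of equal size, 31 of 31 members in the 3 highest classes were marked, against 28.1% of all genes there. In the 3 lowest classes 6 of 26 members were marked (23.1%), against 9.57% of all genes. If members had been marked at the share of all genes in their class, 40.2 of 133 would have been (30.2%), against the 94 counted. The members' share was higher in 9 of the 10 classes, the exception being class 3, with 2 of 15 marked and 15.2% of all genes. The same calculation gave 30.9% for potassium, 31.1% for sodium and 27.1% for calcium channel genes, beside the 75.3%, 42.9% and 69.2% counted. Marked sodium channel genes had a median ratio of 0.603 and the unmarked ones 0.376. The marked genes with the lowest ratios were Kcne3, at 0.0683, and Kcnma1, at 0.0783.

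A sequence feature known from neuronal channel genes is the element bound by the repressor REST, and sodium channel genes were among the first of its targets described. Its core was searched as CAGCACC, any 2 bases and GGACAG, on either strand, a search chosen after the calls were known. A match lay within 1 kb of the 5′ end of 5 members (3.76%), against 0.244% of all protein-coding genes, and within 5 kb of 6 members (4.51%), against 0.653%. The 6 were Cacna1b, Kcnh4, Kcnk12, Kcnt1, Scn2a and Scn3b. At Scn3b the match, 534 bp downstream of the start (chr9:40269744-40269758, minus strand), reads CAGCACCACGGACAG and lay inside peaks of both replicates over its 15 bases. At Scn2a, which had no peak, the same letters stand at −798 bp from the start (chr2:65619966-65619980, plus strand). None of the other 4 matches had a base covered in both lists, although those 4 genes were marked. A match is a run of letters and says nothing of binding in these cells.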

How the data were processed

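H3K27me3 peaks of 2 replicates were used as the authors deposited them on mm10. Calls rest on the pseudoreplicated list made from each replicate alone, per the file headers. Not given in the sources used here are the aligner, the peak caller with its settings, and whether a control was subtracted. Depth is unknown, so low depth can also leave a gene without a peak, and no counting interval was computed. The signal of each peak is the authors' deposited value, of unstated scaling, and was used to rank and describe peaks within 1 list. The −log10 q deposited by the authors was used in 1 alternative. Lists of both libraries together and a list on build mm9 were not used, apart from the second run's replicated list.

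Gene and transcript starts came from GENCODE mouse release 21, and sequence from the RefSeq copy of GRCm38, while the line is of strain 129/Ola. Of the members, 99 have a symbol in the RefSeq promoter table used here, and its 135 rows for them equal the genome letters at their coordinates. A gene's window was its 5′ end with 1 kb on each side. Signal is that of the strongest peak in the window, and percentile ranks are among all peaks of the list. The interval code was checked on simulated intervals. The software was Python 3.11.15 with pandas 2.3.3, NumPy 2.4.6, Matplotlib 3.10.9 and SciPy 1.17.1.

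The members, subfamilies and lists were chosen with earlier results of these data known, so there is no test, and counts stand beside the same counts over all protein-coding genes. Named were up to 3 marked members of each subfamily with the highest mean signal rank and up to 2 with no peak, members with a peak in 1 list, the 10 with most covered bases within 5 kb, those in the 5 longest domains, in clusters or marked at another start only, the calcium channel types and a fixed set of 14. Members outside that rule, such as the lowest covered and the motif holders, were named after their values were seen. Some members named by the rule are not reported here. The alternatives tried were windows of 0.5 and 2.5 kb, peaks with −log10 q from 2 upwards, the relaxed lists, the replicated list, each replicate alone, over 50% of the window covered, any transcript start, joining distances of 1 and 5 kb and a CpG window of 250 bp.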

Additional observations from a re-analysis of the deposited data

How the results depend on the processing

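The number of marked members ranged from 77, when over 50% of the window had to be covered in both replicates (57.9%, against 13.96% of all protein-coding genes), to 106 with the relaxed lists (79.7%, against 33.3%). It was 91 with windows of 0.5 kb (68.4%, against 21.4%), where Kcnab2, Kcnh2 and Kcnq3 were lost, and 101 with windows of 2.5 kb (75.9%, against 30.7%). With the replicated list it was 102 (76.7%, against 33.2%), and with a −log10 q of at least 2 it was 94 (70.7%, against 26.0%). Leaving out 1 replicate gave 96 to 104 members (72.2% to 78.2%, against 27.8% to 30.2%). Under all 9 alternatives 77 members were marked and 17 under none, among them Scn2a, Scn3a, Scn7a and Scn11a. Potassium channel genes ranged from 56 to 77 of 93 marked and sodium channel genes from 5 to 7 of 14. Among these groups the share of auxiliary subunits varied most, from 17 to 33 of 36 (47.2% to 91.7%). Between the same settings the share of all protein-coding genes also varied widely, from 13.96% to 33.3%. The only counts that moved by over 1.5 times were those of domains of 10 kb or longer with a member start: 29 as reported, 13 when joined within 1 kb, and 34 to 45 when 1 replicate was left out. Joining within 5 kb gave 36. The longest domain measured 30.3 kb when joined within 1 kb and 63.5 kb within 5 kb. A single list joins bases that the other list lacks, so longer domains follow from that construction. With the CpG ratio over 250 bp on each side, 38.9 members would be marked at the shares of their CpG classes. The members' share was then higher in all 10 classes, with 6 of 17 marked in class 3 (35.3%, against 15.8% of all genes). In class 8, 10 of 11 members were marked. No paired analysis was possible because the samples form 1 group. Unknown depth limits every statement on an absent peak.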

Other observations

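Channels related to the genes above but outside the symbol rule gave the following counts. Of 46 other cation channels of the same superfamily, 21 were marked in both replicates (45.7%), against 26.1% of all protein-coding genes. All 4 Hcn genes, which carry the pacemaker current, were marked. Hcn4, the main pacemaker channel of the sinoatrial node, had signals of 14.2 and 13.0 in replicates 1 and 2 over 1831 and 1237 bp, and Hcn2 had 11.2 and 11.0 over 1532 and 1498 bp. The 4 Catsper genes of sperm and the 6 Cnga and Cngb genes, channels of sensory cells gated by cyclic nucleotides, had no peak in either list. Of 17 chloride and epithelial or acid-sensing sodium channel genes, 11 were marked (64.7%). They include all 3 Scnn1 genes, the subunits of the epithelial sodium channel, and Scnn1a was covered over all 2001 bp in both replicates. Of 5 acid-sensing Asic genes 4 were marked, and Asic1 had signals of 11.8 and 14.5.

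Lists of members by tissue overlap with the subfamilies and add no independent count. Of 18 channels of the cardiac action potential 14 were marked (77.8%), and of 20 channels of fast-spiking or myelinated neurons 15 were (75.0%), beside 70.7% of all members and 26.1% of all protein-coding genes. Neither list was set against the other by a test.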
